A study of Mus musculus with 2 samples.

Results

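Tenm4 (older name Odz4) encodes teneurin-4, and its locus was described here as 1 window of chromosome 7, positions 103300000 to 104070000 of mm9, a stretch of 770 kb. The locus was chosen by its high CHG methylation in replicate 2, so the CHG levels below describe the values that selected it and are not tested. In replicate 2 the window held 8688 listed cytosines of at most 100 reads (1076 CpG, 6267 CHG and 1345 CHH) of 27435342 listed in that library. No site of the window had more than 100 reads, and the deepest had 44. The remainder of positions 102000000 to 105500000, called the flanks, held 31717 cytosines, and the autosomes held 27285848. The gene boundary, promoter and exons of Tenm4 in mm9 were not used here, so the window stands for the locus as a whole. By name only, the RefSeq annotation of another build (GRCm38.p6) places smaller genes inside Tenm4, among them the microRNAs Mir708 and Mir6394 and the lncRNAs Gm15412 and Gm15413. In that annotation the nearest protein-coding genes are Gm15501 before it and Nars2, then Gab2, after it.

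Teneurins are large transmembrane proteins of the neuronal surface, with EGF-like repeats outside the cell, and they bind latrophilin receptors across the synapse. They are known for roles in axon guidance and synapse formation, and Tenm4 is also required for normal myelination by oligodendrocytes in mice. In mammals most cytosine methylation lies in CpG dinucleotides. Neurons also carry methylation outside CpG, here CpH, where H is A, C or T. It is written mainly by DNMT3A after birth and favours CpA. CpH cytosines are divided into CHG and CHH by whether the base after H is G.

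The study carried out whole-genome bisulfite sequencing of the dentate gyrus, the part of the hippocampus that holds the granule neurons. It had 1 group, wild-type male C57Black6 mice of 8 to 10 weeks, with 2 libraries that the series' design text calls biological replicates. They are called replicate 1 (WT-1) and replicate 2 (WT-2) here. Both dentate gyri were dissected, so every level is an average over the cell types of the tissue, and whether a few cells are highly methylated or many cells slightly cannot be told apart. Bisulfite reads do not separate methylcytosine from hydroxymethylcytosine, and cytosines of 1 strand class were analysed. With no second group, and with 1 library that covers the locus, no test between groups exists.

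Replicate 1 listed 172020 cytosines in all, with 30594981 reads, against 791200717 reads in replicate 2. Within the window the median depth of replicate 2 was 23 reads for CpG and CHG and 32 for CHH, whose table starts at 30 reads and not 20. Each level is the share of reads that were methylated, summed over sites, with exact Clopper-Pearson 95% intervals that cover counting error only. Mitochondrial CpH sites of replicate 2 read 0.368% methylated (0.365% to 0.370%), and this value was used as the level that failed conversion alone would leave. Mitochondrial CpG read 0.340%.

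CHG methylation was higher across the locus than around it, CHH methylation was higher by about the same factor, and CpG methylation was not. The CHG level was 1.96% in the window (1.89% to 2.03%, 2911 of 148296 reads), 0.816% in the flanks (0.792% to 0.841%) and 0.784% over the autosomes. That is 2.41 times the flanks (2.30 to 2.52). The CHH level, which did not choose the locus, was 2.38% in the window (2.24% to 2.53%, 1045 of 43832 reads), 0.973% in the flanks (0.934% to 1.01%) and 0.889% over the autosomes. The window stood at 2.45 times the flanks in CHH (2.28 to 2.63). CpG methylation was 81.3% in the window (80.8% to 81.8%) and 81.4% in the flanks (81.1% to 81.7%), a difference of -0.073 percentage points (-0.638 to 0.486). The window was 2.26 points above the autosomal CpG level of 79.0%.

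Both sides of the window were lower in CpH. CHG was 1.96% in the window, 0.893% on the side before it and 0.724% on the side after it, and CHH was 2.38%, 1.08% and 0.781% in the same order. CpG was 81.3% in the window, 82.6% before it and 79.98% after it, so that the window lay between its sides. The CHG level of the window varied somewhat with depth: it was 1.96% at sites of 20 to 24 reads, 1.85% at 25 to 29 reads and 2.26% at 30 or more reads (491 sites). The values at 25 to 29 and at 30 or more reads lay outside the window's interval of 1.89% to 2.03%. Their own intervals, 1.72% to 1.99% and 2.03% to 2.50%, overlapped it, the second only at its edge. At the same depth of 30 or more reads the flanks had 0.885%. Methylated reads came in even numbers more often than their neighbours would give: over all nuclear CHG sites 91331 held 3 methylated reads and 116948 held 4. Whether both mates of a read pair were counted at the same cytosine was not tested. With all read counts halved the CHG interval of the window widened to 1.86% to 2.06% and that of its fold over the flanks to 2.25 to 2.57, and the CHH fold ran from 2.21 to 2.71.

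The window differed from the flanks both in how many sites had any methylated read and in how many had several. At 81.5% of CHG sites in the window no read was methylated, against 89.4% in the flanks, and at CHH sites the shares were 77.1% and 86.8%. Another 488 CHG sites of the window had 1 methylated read, 332 had 2 and 340 had 3 or more, and those 340 sites held 60.4% of its methylated CHG reads, against 37.4% for such sites in the flanks. A level of 20% or more was reached by 141 CHG sites in the window (2.25% of them), against 101 in the flanks (0.466%). For CHH these were 43 sites in the window (3.20%) and 49 in the flanks (0.680%). Levels of 50% or more were rare. They were reached by 16 CHG sites in the window (0.255%) and 5 in the flanks (0.0231%), against 0.0140% over the autosomes. For CHH there were 2 such sites in the window (0.149%) and 2 in the flanks (0.0277%), against 0.0389% over the autosomes.

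The base after a CpH cytosine gives a measure of failed conversion within the same DNA, since CpC sites carry little neuronal methylation. Without a genome of the build, sites were classed by whether the next base was itself a listed cytosine. Unlisted cytosines leave some CpC sites in the other class. CHH sites directly followed by a listed cytosine were at 0.564% in the window (0.438% to 0.716%, 365 sites), 0.573% in the flanks (0.511% to 0.640%, 1614 sites) and 0.355% over the autosomes. Of the 308 methylated reads of the flanks in this class, 133 came from the step 102000001 to 102050000, at 5.74% (4.83% to 6.77%, 64 sites). The window was 0.986 times the flanks with that step (0.757 to 1.28). Without it, a setting chosen after seeing the data, the flanks were at 0.340% (0.292% to 0.394%) and the window was 1.66 times them (1.254 to 2.20). That fold kept the window's own step with the most such reads, from 103550001. Without this step the window was at 0.519% (0.394% to 0.672%, 338 sites). The whole window was also 1.59 times the autosomes (1.251 to 2.02), and the side after the window was at 0.339%. The control class was thus higher in the window than in most of its surroundings, by less than the other CHH sites were, and the part of failed conversion in the levels was not tested. CHH sites not followed by one were at 3.06% in the window (980 sites), 1.09% in the flanks and 1.04% over the autosomes. Their level exceeded that of the followed class by 2.50 points in the window (2.26 to 2.72) and by 0.517 points in the flanks (0.435 to 0.594).

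In the CHG context the followed class, which is CCG, was at 0.699% in the window (0.492% to 0.962%, 225 sites), 0.495% in the flanks (516 sites) and 0.432% over the autosomes. Its fold was 1.41 over the flanks (0.939 to 2.12) and 1.62 over the autosomes (1.17 to 2.23), and the side after the window was at 0.381% (0.241% to 0.571%). CHG sites not followed by a listed cytosine were at 2.01% in the window (6042 sites), 0.824% in the flanks and 0.795% over the autosomes, a fold over the flanks of 2.44 (2.33 to 2.56). The class difference in CHG was 1.31 points in the window (1.04 to 1.52) and 0.329 points in the flanks (0.185 to 0.442). For CHG this follows from how the locus was chosen, since 96.4% of its CHG sites are in the class not followed.

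Among CHH sites, those with a listed cytosine at the second base after them, but not the first, were the most methylated. These include the CAC sites at which neuronal CHH methylation is known to be highest. They were at 6.28% in the window (5.75% to 6.84%, 240 sites), 2.12% in the flanks (1.98% to 2.28%, 1106 sites) and 2.06% over the autosomes. The fold over the flanks was 2.95 (2.65 to 3.30). CHH sites with no listed cytosine at either base were at 2.01% in the window (740 sites), 0.834% in the flanks and 0.767% over the autosomes, a fold over the flanks of 2.42 (2.18 to 2.68). Levels also differed by the kind of cytosine at the second base. Where it was itself a CHH cytosine, the level was 7.53% in the window (6.85% to 8.26%, 169 sites) and 2.46% in the flanks. Where it was a CHG cytosine, the level was 2.62% in the window (1.96% to 3.42%, 61 sites) and 1.46% in the flanks. The CpG kind had 7.34% in the window but only 10 sites (4.76% to 10.7%), against 0.648% at 43 sites of the flanks.

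**Figure D1:**
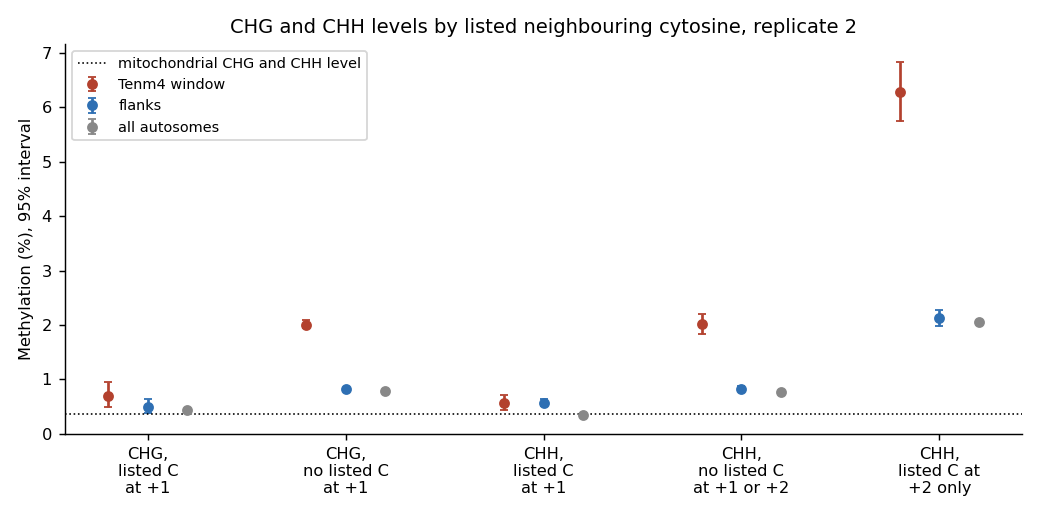
Methylation level in percent (vertical axis, with exact 95% intervals) of 5 classes of CHG and CHH sites in replicate 2, for the Tenm4 window, its flanks and all autosomes, with the mitochondrial CHG and CHH level of 0.368% as a dotted line. CHH sites with a listed cytosine at +2 only stand at 6.28% in the window against 2.12% in the flanks, while CHH sites with one at +1 stand at 0.564% against 0.573%, or 0.340% without 1 step of the flanks.

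Along the window the CHG level was lower in the first part and level at a plateau in the second. In the 15 full steps of 50 kb from 103300001 the levels were 1.26%, 1.43%, 1.31%, 1.56%, 1.82%, 1.99%, 1.79%, 2.38%, 2.29%, 2.40%, 2.30%, 2.21%, 2.21%, 2.36% and 2.29%, and the last 20 kb had 1.24% (0.868% to 1.72%, 120 sites). The 8 steps from 103650001 to 104050000 thus lay within 2.21% and 2.40%, closer together than the interval of any 1 of them. The highest step was 103750001 to 103800000 at 2.40% (2.09% to 2.75%), and the lowest was the last 20 kb. Taken as pieces, the first 350 kb were at 1.60% (1.502% to 1.69%), the next 400 kb at 2.31% (2.20% to 2.41%) and the last 20 kb at 1.24%. The cut at 103650001 lies where the CHG steps rise from 1.79% to 2.38%, so the CHG difference between these pieces follows from its place. Sites followed by a listed cytosine were at 0.630% in the first piece (89 sites), 0.80% in the second (126 sites) and 0 of 231 reads in the last, which allows up to 1.58%.

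CHH did not share this plateau. Its lowest step was the first, 103300001 to 103350000, at 0.895% (0.555% to 1.37%, 72 sites), and its highest was the last 20 kb at 4.20% (3.09% to 5.56%, 34 sites). In those 20 kb the 5 CHH sites followed by a listed cytosine were high as well, at 3.59% (1.33% to 7.66%), and 44 of the 46 methylated CHH reads lay in the first 10 kb. Among the full steps, 103800001 to 103850000 was highest at 4.18% (3.11% to 5.49%), and 103900001 to 103950000 was at 1.06%. The median of the 16 steps was 2.60% for CHH and 2.10% for CHG. CHH was 2.33% in the first 350 kb and 2.34% in the next 400 kb. The cut between these pieces lies at the rise of CHG, so whether CHG and CHH differ along the window was not tested. CHH sites with a listed cytosine at the second base only were at 7.36% in the first piece (6.54% to 8.24%, 114 sites) and 5.05% in the second (4.38% to 5.79%, 119 sites). Across the 16 steps, which share 1 library, CHG and CHH had a Pearson's r of 0.092 and a Spearman's rho of 0.18. For CHG and followed CHH sites r was -0.30 and rho -0.16.

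CpG methylation varied from step to step, with an r of 0.26 and a rho of 0.36 to CHG over the same 16 steps. It was lowest in 103700001 to 103750000 at 69.1% (67.0% to 71.2%), a step with 2.29% CHG, and highest in 103450001 to 103500000 at 89.4%, a step with 1.56% CHG. The median of the 16 steps was 82.9%. By piece CpG was 81.3% in the first 350 kb, 81.5% in the next 400 kb and 74.5% in the last 20 kb.

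**Figure D2:**
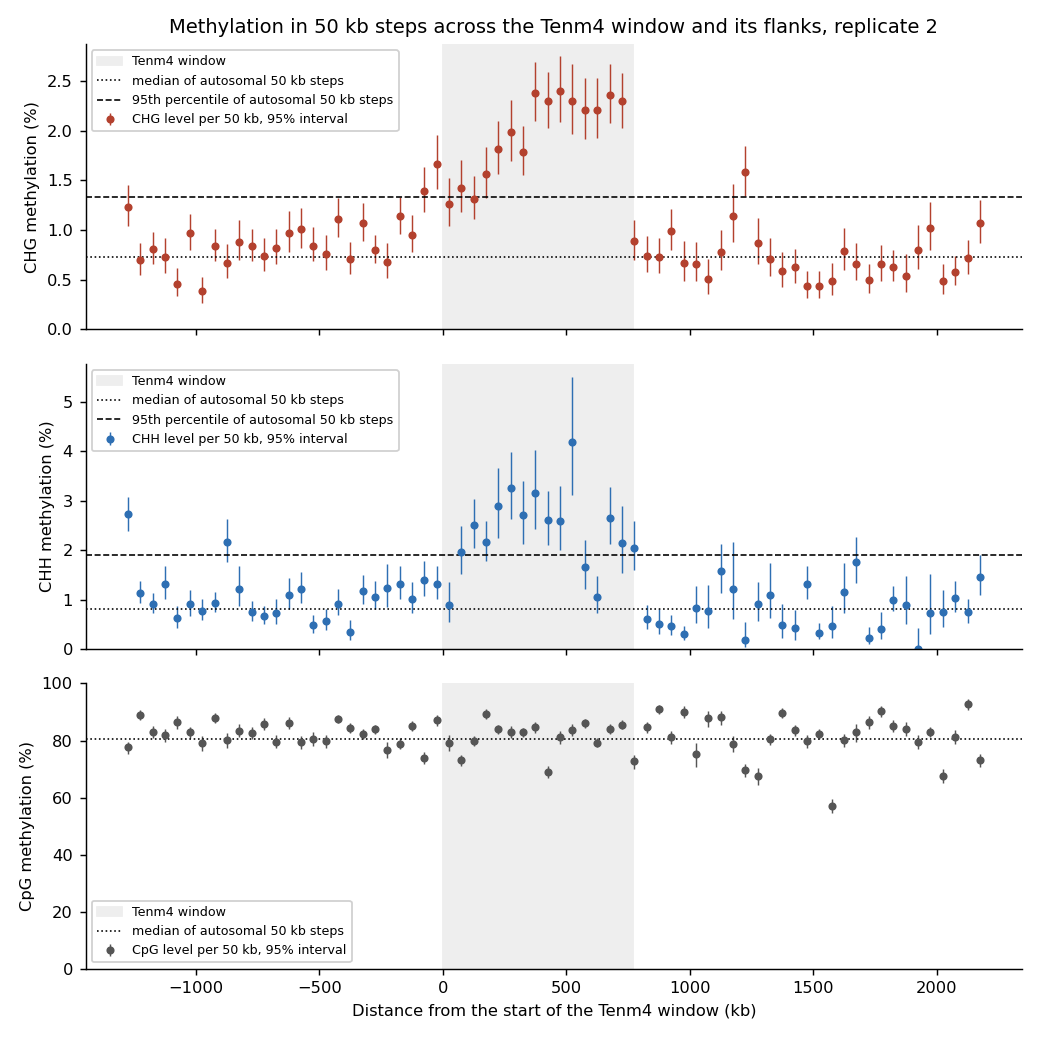
CHG, CHH and CpG methylation in percent (vertical axes, from 0) per 50 kb step of replicate 2, against the distance in kb from the start of the Tenm4 window (grey), with exact 95% intervals and, as lines, the median and, for CHG and CHH, the 95th percentile of autosomal steps. CHG holds 2.21% to 2.40% over the 400 kb before the fall at the end of the window, CHH is high but uneven, and CpG lies between 69.1% and 89.4% in the window.

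Set among all autosomal 50 kb steps with at least 100 CHG sites (47294 steps), 13 of the 15 full steps of the window were above the 95th percentile of 1.33%, and 11 were above the 99th percentile of 1.77%. The median autosomal step was at 0.729% and the highest at 3.996%. The steps of the window ranked between percentile 93.6 and percentile 99.9. For CHH, over 43870 steps with at least 30 CHH sites, the autosomal median was 0.811%, and 12 of the 15 steps were above the 95th percentile of 1.91%, 4 of them above the 99th of 2.87%. For CpG 1 of the 15 steps was above the 95th percentile of 87.9%, and the autosomal median was 80.5%. The steps of the window adjoin each other and share a library, so these counts describe 1 locus.

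**Figure D3:**
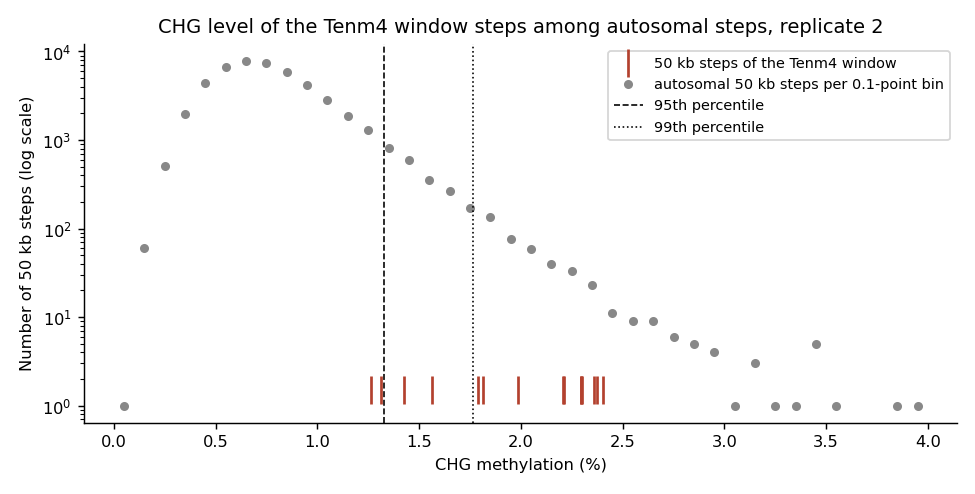
Number of autosomal 50 kb steps (log scale) by CHG level in percent, in bins of 0.1 points, with the 15 full steps of the Tenm4 window as red ticks. The ticks run from 1.26% to 2.40%, 13 of them right of the 95th percentile at 1.33% and 11 right of the 99th at 1.77%.

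The high CHG interval was defined as the longest run of steps above that 95th percentile, with a single lower step between high ones bridged. It ran from 103200001 to 104050000, which is 850 kb in 17 steps, 15 of them above the threshold. It thus began 100 kb before the window and ended 20 kb before the window's end. The start was gradual. The first step of the run was at 1.39% (1.18% to 1.63%), against 0.949% (0.777% to 1.15%) in the step before it. That change of 0.446 points was matched or exceeded by 10.8% of neighbouring pairs of autosomal steps. In steps of 10 kb the level reached 2.41% at 103220001 and 2.43% at 103250001, and was 0.761% at 103300001, so values above and below the threshold alternated before the window. Stricter rules moved the start inwards. It was 103450001 with no lower step allowed, and 103500001 with the 99th percentile as threshold.

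The end was abrupt. The last step of the run, 104000001 to 104050000, was at 2.29% (2.03% to 2.58%), and the next step, 104050001 to 104100000, was at 0.885% (0.701% to 1.10%). A change of that size, -1.41 points, was matched or exceeded by 70 of 47060 neighbouring pairs (0.149%). The pairs at the start and the end were both picked by the same CHG values. The 95th percentile of autosomal steps, 1.33%, was itself smaller than this fall, so few pairs could show it. Both shares are therefore descriptions. In 10 kb steps the level was 3.07% at 104010001, 3.30% at 104020001, 1.28% at 104030001, 1.06% at 104040001, 1.68% at 104050001, 0.952% at 104060001 and 0.444% at 104070001. The fall therefore lay mostly near 104030001, inside the window. CHH was 2.14% in the last step of the run (1.53% to 2.90%) and 2.05% in the next. The second value rested on the 10 kb from 104050001, with 44 of 624 reads methylated (7.05%, 19 sites) and 5.77% at its 3 followed sites. The remaining 40 kb of that step were at 0.892% (0.572% to 1.32%). In the same steps CpG was 85.6% and 72.7%. Beyond the run 1 further step was above the threshold, 104500001 to 104550000 at 1.58% CHG, where CHH was 0.189% (50 sites) and CpG was 69.6%.

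**Figure D4:**
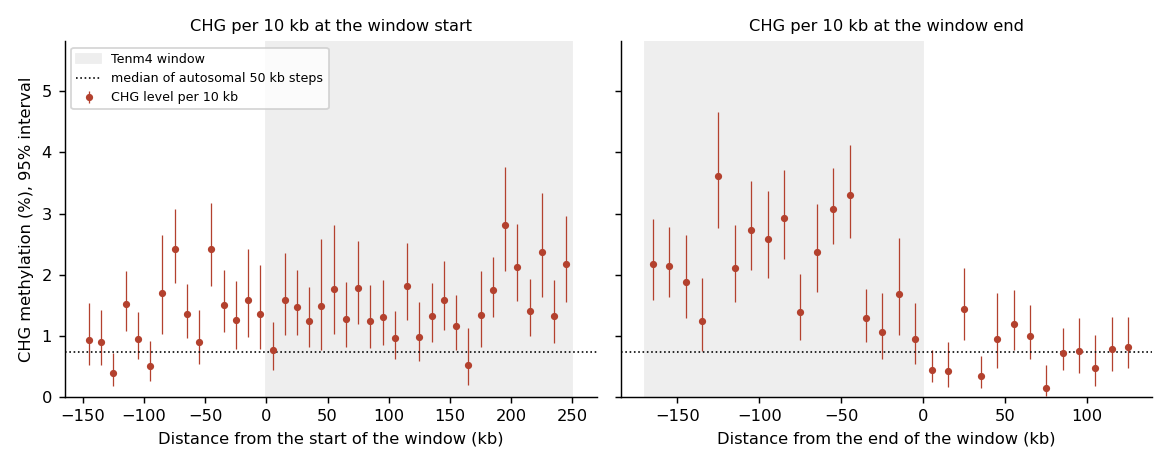
CHG methylation in percent per 10 kb (exact 95% intervals) around the start and the end of the Tenm4 window (grey), against the distance in kb from each, with the autosomal 50 kb median of 0.729% dotted. Around the start, points near 2.4% lie on both sides of it, while at the end the level drops to 1.28% at 40 kb before the end and is 0.444% just after it.

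Runs of this length were rare. By the same rule the autosomes held 1281 runs, of which 830 were a single step and 19 were 500 kb or longer. The run at Tenm4 was exceeded by 3 runs and equalled by 1. The longest, chromosome 7 positions 122000001 to 123200000, had 1200 kb, followed by chromosome 13 positions 102450001 to 103500000 with 1050 kb and chromosome 9 positions 60700001 to 61700000 with 1000 kb. The equal one was chromosome 17 positions 66900001 to 67750000. The Tenm4 run had a CHG level of 1.92% (1.86% to 1.99%), against 1.83%, 1.68%, 1.58% and 1.503% in those 4 runs in the order given. All were chosen on CHG, so these are descriptions. In CHH sites with a listed cytosine at the second base only, the Tenm4 run was at 5.59% (5.14% to 6.08%), against 6.01%, 5.18%, 5.01% and 5.11%. Its followed CHH sites were at 0.478% (0.370% to 0.607%), against 0.472%, 0.380%, 0.424% and 0.353%, and its CpG level was 81.2%, against 80.4%, 82.4%, 78.5% and 82.8%. The Tenm4 run thus had a higher CHG value than the other 4, but its interval overlapped that of the longest run (1.78% to 1.88%). It lay within their span in CpG and in CHH with a cytosine at the second base. In followed CHH sites it was the highest, with an interval that covered 3 of the 4 other values.

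**Figure D5:**
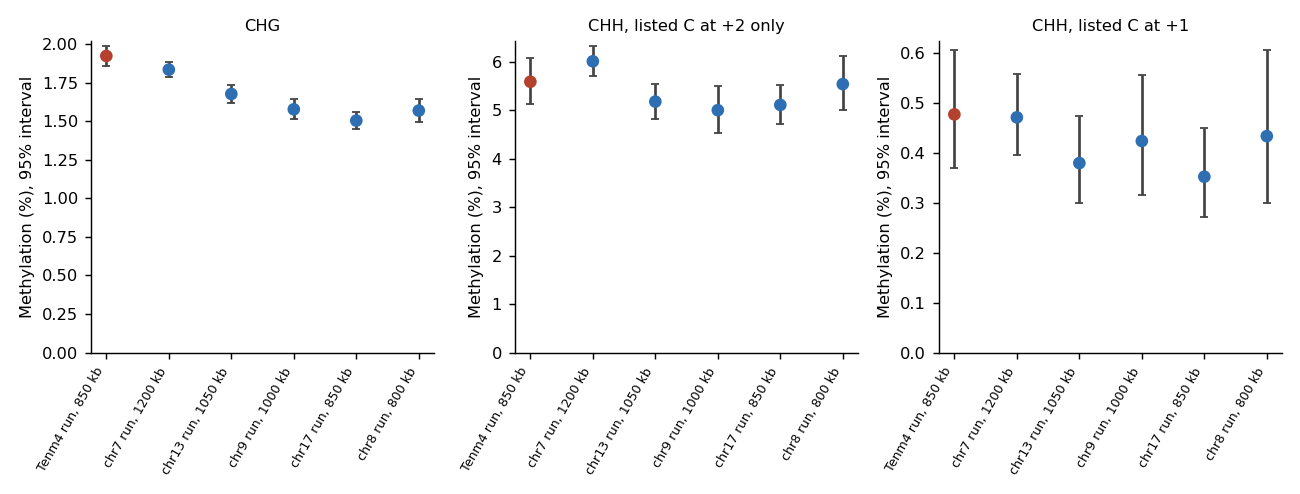
Methylation level in percent (exact 95% intervals) of the Tenm4 run (red) and of the 5 other longest high-CHG runs of the autosomes (blue), for CHG, for CHH with a listed cytosine at +2 only and for CHH with one at +1. The Tenm4 run is at 1.92% in CHG, above the others but with an interval that overlaps that of the longest run. It is at 5.59% in the second class, within their span, and at 0.478% in the third.

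Calls at single sites came from a one-sided exact binomial test against the mitochondrial CpH rate, with Benjamini-Hochberg adjustment over all nuclear sites of the context at 0.01. In CHG 325 of 6267 sites of the window were called (5.19%), against 313 of 21656 in the flanks (1.45%), where 1.46% of all nuclear CHG sites were called. This comparison follows from how the locus was chosen, and nothing is read from it. In CHH 121 of 1345 sites of the window were called (8.996%), against 204 of 7208 in the flanks (2.83%), where 2.75% of all nuclear CHH sites were called. A call needed at least 3 methylated reads. The median level of called sites was 18.2% in the window and 16.7% in the flanks for CHG, and 15.6% in the window and 13.3% in the flanks for CHH. Called sites held 58.9% of methylated CHG reads in the window and 35.8% in the flanks, and 74.3% of methylated CHH reads in the window and 54.1% in the flanks. With counts halved, 102 CHG sites of the window (1.63%) and 78 of the flanks (0.360%) were called, against 0.288% of nuclear sites. For CHH 55 sites of the window (4.09%) and 72 of the flanks (0.999%) were then called, against 0.881% of nuclear sites.

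The calls followed the neighbour classes. Of CHH sites with a listed cytosine at the second base only, 58 of 240 were called in the window (24.2%) and 86 of 1106 in the flanks (7.78%). Of CHH sites followed by one, 7 of 365 were called in the window (1.92%) and 9 of 1614 in the flanks (0.558%). Of followed CHG sites, 4 of 225 were called in the window (1.78%) and 3 of 516 in the flanks (0.581%). These CHG sites are among the values that chose the locus, so nothing is read from their calls. No share over all nuclear sites of a class is given, so the class shares set the window against its flanks only. Followed CpH sites within 30 bases of another of the 446 called CpH sites were at 0.864% (0.640% to 1.14%, 179 sites), and those farther away at 0.478% (0.361% to 0.622%, 411 sites). With called followed sites left out, the levels were 0.328% (0.195% to 0.518%, 173 sites) and 0.317% (0.222% to 0.439%, 406 sites). Called sites are by definition those with many methylated reads, so leaving them out had to lower the levels. It took the methylated reads from 49 to 18 within 30 bases and from 55 to 36 farther away. What the difference rests on was not tested.

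At a few sites of the window the greater part of the reads was methylated. The CHG site with the lowest p was at 103764570, with 22 of 30 reads methylated (73.3%, adjusted p = 3.84e-42 by the exact binomial test). It was followed by 103942001 with 19 of 33 reads, 103868101 with 17 of 23, 103666465 with 16 of 32 and 104007923 with 14 of 27 (adjusted p = 2.31e-23 by the exact binomial test). None of these 5 had a listed cytosine directly before or after it, and all lay in the part from 103650001 on, where CHG was highest. Their reads are part of the CHG values that chose the locus and placed that cut, so nothing is read from their place. In CHH the lowest p was shared by 103400882 and 103669263, each with 24 of 31 reads methylated (77.4%, adjusted p = 1.84e-48 by the exact binomial test). Behind them 103498960, 103662180 and 103894428 had 14 of 31 reads each (45.2%, adjusted p = 3.07e-23 by the exact binomial test). All but 103662180 had a listed cytosine at the second base. At 4 of the 5 CHG sites and at the first 2 CHH sites most reads were methylated. These values rest on 1 library.

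CpG sites of the window were mostly highly methylated. Of the 1076 sites, 753 were above 80% (70.0%, against 66.6% of autosomal CpG sites), 157 were from 60% to 80%, 81 from 40% to 60%, 44 from 20% to 40%, and 41 were at 20% or less (3.81%, against 5.10%). Runs of at least 5 consecutive listed CpG sites at 20% or less occurred at 2 places. The longer covered 4304 bases, 103358052 to 103362355, with 10 CpG sites at 3.39%. The other covered 950 bases, 103723226 to 103724175, with 5 CpG sites at 10.6%.

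CpH had few reads in both. In the longer run 1 of 419 CHG reads was methylated over 18 sites (0.239%, 0.006% to 1.32%), below the window's interval, and at its 1 listed CHH site 0 of 30 reads were, which allows up to 11.6%. In the shorter run 0 of 146 CHG reads over 7 sites were methylated, which allows up to 2.49% and so includes the window's level, and no CHH site was listed. Around single CpG sites of 20% or less CHG was 1.07% within 200 bases of one (0.818% to 1.36%, 240 sites), 1.23% from there to 1000 bases, 2.27% from there to 5000 bases and 1.97% farther away. CHH was 0.706%, 0.621%, 2.16% and 2.58% over the same distances. CHG varied less with the distance to a CpG of at least 80%, with 1.98% within 50 bases, 2.05% from there to 200 bases, 2.04% from there to 1000 bases and 1.65% beyond. CHH was 2.55%, 3.07%, 2.21% and 1.14% over those distances. These classes share sites and the same reads, so they are given as a description.

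Replicate 1 gave no level for the locus. It listed 9 sites of the window, none of them CpG, against 8688 in replicate 2. Of these, 6 were listed in both. At 103335252, a CHG site, 3 of 20 reads were methylated in replicate 1 and 0 of 20 in replicate 2. The CHG sites 103975185 and 103975189 had 0 of 20 reads in replicate 1 and 0 of 33 in replicate 2. Among CHH sites, 103975160 had 0 of 20 and 0 of 38, 103975179 had 0 of 21 and 0 of 38, and 103975188 had 0 of 20 and 2 of 33, with replicate 1 given first. The CHH sites 103335244, 103335248 and 103335251, listed in replicate 1 only, had 0 of 20 reads each. None of the 6 shared sites was methylated in both libraries, so the high CpH level of the locus has no replicate check here.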

How the data were processed

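Whole-genome bisulfite reads of 2 dentate gyrus libraries were handled with Bismark 0.7.5 against mm9, per the submitters' processing notes. How reads were trimmed, and whether PCR duplicates were removed, is not given in the sources used here. For each library and context the authors deposited counts per cytosine of 1 strand class (reads methylated, reads not methylated, all reads) and a percent of methylated reads. The deposited percent was not used: levels were recomputed from the counts over sites of at most 100 reads. Sites below the tables' lowest depth (20 reads, or 30 for CHH in replicate 2) are not in the comparisons. Without molecular identifiers, PCR copies of 1 molecule cannot be told from separate molecules.

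The window, the wider interval and the lists were chosen with earlier results of these data known. Level intervals are exact. Intervals of folds were taken on the log scale and those of differences by Newcombe's method. Steps lie on a 50 kb grid from position 1. The sites named are the 5 CHG and 5 CHH sites with the lowest binomial p, sites listed in both libraries, and runs of at least 5 CpG sites at 20% or less, and the steps named are the highest and lowest and those at the edges of the interval. The calls and intervals were checked on simulated data with independent reads. That check does not cover the excess of even read counts described above. Alternatives are given in the closing section. No genome of mm9 was used, so no sequence, exon or promoter is reported, and RefSeq names come from GRCm38.p6. Python 3.11.15, numpy 2.4.6, scipy 1.17.1, pandas 2.3.3 and matplotlib 3.10.9 were used.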

Additional observations from a re-analysis of the deposited data

How the results depend on the processing

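Of 66 alternative values, 37 stayed within the interval, 1 step or 1.5 times of the value given above. Some of the 37 were fixed in advance. No site of the window had more than 44 reads, so a depth maximum of 50 or none kept the same sites. The CHH table starts at 30 reads, so the CHH level, fold and calls at 30 or more reads could not move. Only folds and class differences could reverse in direction, and none did. The values outside those bounds follow, and the cause was not tested. At 30 or more reads the CHG level of the window was 2.26%, its CpG level 84.1%, the CHG class difference 1.94 points and the CHG fold over the flanks 2.55. At that depth 31 of the 491 CHG sites left in the window were called, against 325 of 6267 above. The lower count thus comes with fewer sites, and no nuclear share at that depth is given. At 40 or more reads few sites were left, with CHG at 1.30% (13 sites), CHH at 1.496% (41 sites), CpG at 72.5% (1 site) and the CHH class difference at 1.48 points, and the CHG class difference gave no value. With the mitochondrial rate subtracted, CHG was 1.60% and CHH 2.02%, and the folds over the flanks were 3.56 and 3.33. Leaving out sites followed by a listed cytosine gave a CHH level of 3.06% and fold of 2.81. Against the flank before the window the folds were 2.20 for CHG and 2.20 for CHH, against the flank after it 2.71 and 3.05, and against all autosomal sites 2.68 for CHH. The high CHG interval started at 103475001 with 25 kb steps, at 103500001 with the 99th percentile and at 103450001 with no lower step allowed, and the interval from CHH levels ran from 103350001 to 103850000. A background of 1% left 180 of 6267 CHG and 68 of 1345 CHH sites of the window called, with no nuclear share given. Halved counts, an alternative chosen after seeing the data, left 102 and 55. Leaving out the flank step from 102000001, chosen likewise, gave folds of 2.43 for CHG and 2.63 for CHH. No paired analysis was possible because the study has 1 group. The values without replicate 2 were not run, since replicate 1 lists 9 sites of the window and 10 were required.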
